A study of Mus musculus with 12 samples.

Results

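The comparison set aorta from APPL1 knockdown mice on a high-fat diet (HSAPN, 3 libraries) against aorta from WT mice on a normal diet (WT, 3 libraries). All 12 samples of the series were mouse aorta, and 6 of them belong to these 2 groups. The high-fat diet held 60% of its energy as fat, was fed for 12 weeks and was given to bring on type 2 diabetes, per the labels. The other 2 groups, HFD and HAPN, were WT mice on the high-fat diet, with no difference between them stated in the labels. Not given in the sources used here are how the knockdown was made, in which cells it acts, the animals' age, sex and strain, and what HSAPN stands for. HSAPN differs from WT in both diet and genotype, so an effect of the diet and one of the knockdown cannot be told apart in this comparison. Genes entered if they reached 1 FPKM (reads scaled to transcript length and library size) in at least 3 of the 6 libraries, which kept 1489 of the 3528 genes used.

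APPL1 is an adaptor protein that binds the adiponectin receptors and passes their signal, and part of the insulin signal, to kinases inside the cell. In the vessel wall this route is known for activating endothelial nitric oxide synthase and thereby promoting relaxation. The aorta itself is built from contractile smooth muscle in the media, an endothelial lining, and an adventitia of fibroblasts, nerves and resident macrophages, with fat around it. Blood cells and fat that stay with the dissected vessel add their RNA to such libraries.

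The knockdown could not be checked from its target, since Appl1 was not among the 3534 symbols with values, and neither were Appl2, Adipor1, Adipor2 and Nos3. Of the 31 genes listed for adiponectin, insulin and APPL1 signalling, 5 were in the files and 3 were tested. Adipoq, which encodes adiponectin, had 2.44, 9.44 and 53.8 FPKM in WT and 0.533, 2.27 and 4.06 FPKM in HSAPN. The groups overlapped in Adipoq, and the spread within WT was larger than the spread within HSAPN. Cdh13, which encodes the adiponectin-binding T-cadherin, had a mean of 3.11 ± 1.65 FPKM in WT and 2.43 ± 0.525 in HSAPN (SD, n = 3 each). Irs2, an adaptor of the insulin receptor, had 6.49 ± 1.90 FPKM in WT and 6.89 ± 0.367 in HSAPN, with overlapping groups for both genes.

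The 6 libraries held 16570000 to 17835000 reads as implied by the deposited values, and a tested gene had a median of 225 reads per library. The genes in the files took 14.0 to 17.6% of the reads in WT and 12.4 to 14.0% in HSAPN. Nothing in the labels ties each replicate to its own animal, so p-values here reflect the spread between these samples only. Smooth muscle genes were abundant in all 6 libraries, with Acta2 between 162 and 1607 FPKM, as the aorta label implies. The WT libraries differed among themselves, and WT replicate 3 lay nearest to HSAPN. Over the tested genes the Pearson r of WT replicate 3 was 0.952 with HSAPN replicate 3, against 0.887 and 0.919 with WT replicates 1 and 2. WT replicates 1 and 2 correlated at 0.936, and the HSAPN libraries correlated with one another at 0.940 to 0.966. On the first principal component, WT replicate 3 lay at −1.98, between the other WT libraries at −14.0 and −23.3 and the HSAPN libraries at 5.81, 15.7 and 17.8. On the second, WT replicate 1 lay apart at 19.1, against −5.32 and −16.4 for WT replicates 2 and 3. The counts over all genes are also given without WT replicate 3, as are the list values that it moves most. It is the WT library nearest to HSAPN, so leaving it out favours calls. Calls made without it are no separate support.

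**Figure D1:**
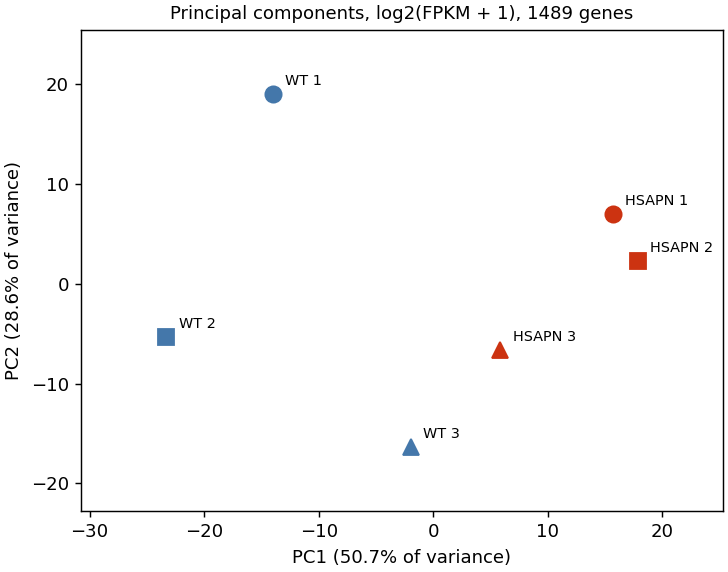
Principal components of log2(FPKM + 1) over the 1489 tested genes, with the first component (50.7% of variance) on the x axis and the second (28.6%) on the y axis; each point is a library, blue for WT and red for HSAPN. WT replicate 3 at −1.98 on the first component is the WT library nearest to HSAPN replicate 3 at 5.81.

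No gene passed the threshold between HSAPN and WT. The limma-trend fit called 0 of 1489 genes (0%) at a Benjamini-Hochberg adjusted p under 0.05, and limma-voom on reads recovered from the values also called 0. An unadjusted p under 0.05 was reached by 345 genes (23.2%), with 120 (8.06%) higher and 225 (15.1%) lower in HSAPN. Evenly spread p-values would give 74. That number is no firm yardstick here, since how the deposited genes were chosen is not known and genes shift together by library. The smallest adjusted p was 0.0765. In 447 genes (30.0%) the 3 HSAPN values all lay on 1 side of the 3 WT values, above them in 153 (10.3%) and below them in 294 (19.7%). The log2 difference was above 0 in 41.8% of genes and below 0 in 58.2%, with a median of −0.13.

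That tilt toward lower values depended on the scaling and on single WT libraries. When libraries were scaled by median ratios, the median moved by 0.10 to −0.02, and of the 380 genes at an unadjusted p under 0.05 the lower ones made up 43.9%, against 65.2% as deposited. Without WT replicate 3, 525 genes had an unadjusted p under 0.05, 250 higher and 275 lower (52.4%), and without WT replicate 1 there were 46 higher and 209 lower (82.0%). Without WT replicate 3, limma also called 178 genes, 84 higher and 94 lower. With libraries weighted by their agreement with their own group it called 441, and WT replicate 3 had the lowest weight, 0.385. On data simulated for this comparison with 1489 genes, the fit recovered 59.3% of log2 changes of 1 and 87.8% of changes of 2. The changes were planted in better expressed genes only, in many genes at once and with noise independent between genes. The rates therefore do not cover low genes such as Ccna1, nor data in which genes shift together by library.

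The 12 genes with the smallest p in each direction, among those with separate groups, are described first, as values that did not pass. All 24 were called without WT replicate 3, the WT library nearest to HSAPN, and none of them without any 1 of the other 5 libraries. The 24 were picked from these same values, so those calls are no separate support.

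Among the genes higher in HSAPN were ligands of the immune system. Tnfsf9 (chr17:57105325-57107757, GRCm38), a TNF superfamily ligand that co-stimulates T cells, had 1.39, 0.546 and 2.10 FPKM in WT and 4.93, 4.12 and 6.32 in HSAPN. Every HSAPN value was above every WT value, and the log2 difference was 1.42 (SE 0.28, limma adjusted p = 0.151). Ccl8 (chr11:82115185-82116799), a chemokine that draws monocytes, had 8.05, 2.95 and 6.22 FPKM in WT and 20.6, 33.0 and 15.9 FPKM in HSAPN. Its mean was 4.04 times higher in HSAPN, a log2 difference of 1.86 (SE 0.42, limma adjusted p = 0.152). Ccl6, a chemokine of macrophages and other myeloid cells, had 18.6, 9.50 and 42.1 FPKM in WT and a narrow 86.0, 87.5 and 96.1 FPKM in HSAPN. Camp, which encodes the antimicrobial peptide cathelicidin of neutrophils, stayed at 0.151 to 0.621 FPKM in WT and had 8.59, 2.03 and 5.64 FPKM in HSAPN. Its WT values rest on 2, 4 and 8 reads. Of the 4 tested genes of neutrophils, eosinophils and mast cells, 3 were higher (background 41.8%) and 1 was lower. The lower gene, Ltf, also listed for the airway, had 29.6, 939 and 222 FPKM in WT and 13.2, 8.79 and 79.6 FPKM in HSAPN, with overlapping groups.

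Slc6a2, the noradrenaline transporter of sympathetic nerve endings, had 1.02, 1.21 and 8.36 FPKM in WT and 14.6, 21.5 and 10.4 FPKM in HSAPN. WT replicate 3 was close to the HSAPN range, and the log2 difference was 2.19 with it (SE 0.55, limma adjusted p = 0.152) and 2.91 without it. Stmn2, a regulator of neuronal microtubules, and Nsg1, a protein of neuronal endosomes, were separate in the same direction, with log2 differences of 1.09 and 1.43. Serpina3n, a secreted serine protease inhibitor of the acute phase, had 13.5, 16.4 and 28.2 FPKM in WT and 41.0, 60.6 and 38.9 FPKM in HSAPN. Ctla2a, a cathepsin inhibitor found in endothelium, had 7.16 to 15.8 FPKM in WT and 19.2 to 28.3 FPKM in HSAPN. The platelet genes Clec1b and Gng11 and the photoreceptor disc gene Prcd completed the 12, with log2 differences of 1.35, 0.78 and 0.91.

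Ccna1 (chr3:55045469-55055501), cyclin A1, a cell cycle gene best known from male germ cells, had the smallest p of all. It had 2.09, 1.92 and 2.24 FPKM in WT and 0.463, 0.280 and 0.427 in HSAPN, which are 63 to 70 reads against 9 to 15. The WT mean was 5.35 times the HSAPN mean, a log2(FPKM + 1) difference of −1.15 (SE 0.17, limma adjusted p = 0.0765), and the gene passed with a pseudocount of 5 (adjusted p = 0.0212). Rad51b, a gene of recombination repair, had 3.38, 2.84 and 1.69 FPKM in WT and 0.482, 0.531 and 0.818 FPKM in HSAPN. WT replicate 3 was the lowest WT library for Rad51b and still above the highest HSAPN library.

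Amy1 (chr3:113555710-113606699), an amylase gene whose reads can be shared with other amylase genes, had 7.15, 5.57 and 5.14 FPKM in WT and 2.79, 1.75 and 2.39 FPKM in HSAPN. The groups were separate, with a log2 difference of −1.07 (SE 0.21, limma adjusted p = 0.151). Aqp2, a water channel known from the kidney collecting duct, had 3.71, 4.34 and 1.99 FPKM in WT and 0.640, 0.403 and 0.851 FPKM in HSAPN. Serpinf1, which encodes the secreted anti-angiogenic factor PEDF, had 31.4, 30.6 and 14.2 FPKM in WT and 10.5, 7.66 and 7.53 FPKM in HSAPN. Grhpr, which reduces glyoxylate, had 11.5 to 18.9 FPKM in WT and 7.43 to 8.94 FPKM in HSAPN. The other lower genes were Egr1, described with the immediate early genes, Oxld1, the phospholipase gene Plch2, the ectonucleotidase gene Entpd8, the kallikrein gene Klk10 and the F-box gene Fbxl13, with log2 differences between −1.52 and −0.76.

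**Figure D2:**
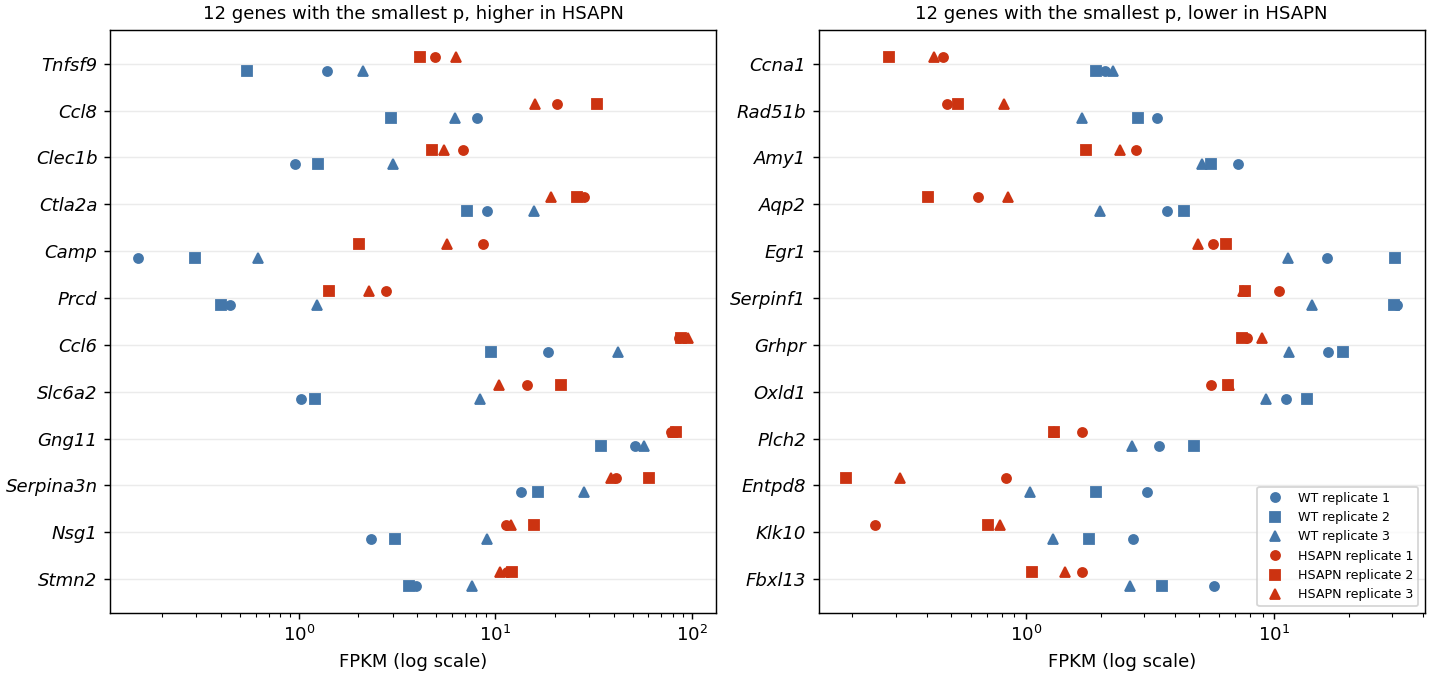
FPKM (log x axis) of the 12 higher and 12 lower genes with the smallest p, 1 point per library, with blue for WT and red for HSAPN and the marker shape for the replicate number. The groups do not overlap in any of them by the rule that chose them, and in Slc6a2 the WT replicate 3 value of 8.36 FPKM lies next to the lowest HSAPN value of 10.4 FPKM.

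Gene lists are described by the members that passed the level filter, which a gene can pass through 1 group alone, and no gene of any list passed the test.

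Contractile genes of smooth muscle were lower as a group. Of 11 tested genes (13 in the files), 11 had a negative log2 difference and 9 had separate groups (background 58.2% and 19.7%), and the median difference was −1.46 against −0.13 for all genes. Tpm2, a tropomyosin of the thin filament, had 77.0, 302 and 45.9 FPKM in WT and 22.7, 23.2 and 33.7 FPKM in HSAPN. Acta2, the smooth muscle actin, had 354, 1607 and 421 FPKM in WT and 162, 241 and 294 FPKM in HSAPN, a log2 difference of −1.46 (SE 0.61, limma adjusted p = 0.203). Cnn1, which encodes calponin, Myl9, a regulatory myosin light chain, Des, which encodes desmin, and Myh11, the smooth muscle myosin heavy chain, had log2 differences of −2.10, −1.47, −1.73 and −1.51. All HSAPN values of these 6 genes were below all WT values, but WT replicate 2 was far above the other WT libraries in each of them. Without WT replicate 2 the list's median was −0.77, with 11 of 11 genes still lower. Without WT replicate 3 it was −1.69 and Tpm2 alone of the 11 was called. In bulk tissue, fewer cells of a type and less RNA per cell cannot be told apart.

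Serum response factor, which drives many contractile and immediate early genes, binds a sequence named the CArG box. The search was for exact matches to CCWWWWWWGG, where W is A or T. Variant or more distant boxes would be missed. A CArG box was found on either strand within 250 bases before the start of 1 of the 10 contractile genes that matched the RefSeq promoter table (GRCm38.p6), Myl9, against 439 of all 27025 promoters (1.62%). It is shown since it is the list's only match in that window, on the plus strand at chr2:156775263-156775352, with the box in capitals:
Myl9: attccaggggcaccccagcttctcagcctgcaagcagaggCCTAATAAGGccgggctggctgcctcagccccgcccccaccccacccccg

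Immediate early genes, which are transcribed within minutes of a stimulus, were also lower. Of 9 tested (11 in the files), 9 were lower and 6 had separate groups (background 19.7%), with a median of −0.80. Egr1, a zinc finger transcription factor, had 16.4, 30.9 and 11.4 FPKM in WT and 5.67, 6.39 and 4.94 FPKM in HSAPN. The WT mean was 3.45 times the HSAPN mean, with groups well apart (log2 difference −1.52, SE 0.33, limma adjusted p = 0.152). Nr4a1, an orphan nuclear receptor, had 28.3, 42.6 and 23.1 FPKM in WT and 16.7, 13 and 14.5 FPKM in HSAPN. Fos, a subunit of AP-1, had 15.1, 34.0 and 18.4 FPKM in WT and 14.2, 9.16 and 12.4 FPKM in HSAPN, where the closest values were 15.1 and 14.2. Nr4a2, Egr3 and Atf3 were the other genes with separate groups, at log2 differences of −0.91, −0.67 and −1.12. With median-ratio scaling 8 of the 9 were lower and 1 was higher, and without WT replicate 3 the same counts held, with Egr1 alone called. No CArG box of the exact pattern was found in the same promoter windows of the 6 immediate early genes that matched. Variant or more distant boxes were not searched for. TGACGTCA, the cyclic AMP response element, was found in 1 of these 6 genes, Dusp1, against 1.77% of all promoters.

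Genes of adventitial fibroblasts were lower in 11 of 12 tested and separate in 10 (background 19.7%), with a median of −0.62. Dcn, the matrix proteoglycan decorin, had 61.9, 62.1 and 64.1 FPKM in WT and 38.4, 33.8 and 22.5 FPKM in HSAPN. The WT libraries were close together for Dcn, and the WT mean was 1.99 times the HSAPN mean (log2 difference −1.0, SE 0.29, limma adjusted p = 0.152). Smoc2, a calcium-binding matrix protein, had 9.12 to 10.3 FPKM in WT and 5.55 to 6.72 FPKM in HSAPN. Clec3b, which encodes the plasminogen-binding protein tetranectin, had 105 to 143 FPKM in WT and 75.7 to 89.8 FPKM in HSAPN. The fibroblast list moved little with the libraries left out, at −0.62 without WT replicate 2 and −0.67 without WT replicate 3. Among genes of the extracellular matrix at large, 14 of 23 were lower and 9 higher, with a median of −0.22 that was −0.11 without WT replicate 2, −0.14 without WT replicate 3 and −0.10 with median-ratio scaling. Groups were separate in 7 lower genes (background 19.7%), 4 of them fibroblast genes as well, and in 2 higher genes (background 10.3%). Optc, which encodes the proteoglycan opticin, was among the lower ones (log2 difference −1.42), and the higher ones were Mmp19 and Mmp12, both matrix metalloproteinases (1.0 and 1.51).

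Genes of Schwann cells and neurons went in both directions. S100b, a calcium-binding protein of Schwann cells, had 6.24, 9.53 and 4.44 FPKM in WT and 0.801, 0.653 and 3.17 FPKM in HSAPN, so the groups were separate. Stmn2 was the 1 gene of these 6 that was higher. All 6 had separate groups, 5 lower (background 19.7%) and 1 higher (background 10.3%).

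Platelet and red cell genes stood higher in HSAPN. Of the 18 platelet genes in the files 17 were tested, and 17 had a positive log2 difference (background 41.8%) and 13 had separate groups (background 10.3%), with a median of 0.78. Tubb1, the platelet tubulin, had 1.58, 2.39 and 10.2 FPKM in WT and 17.0, 26.3 and 10.8 FPKM in HSAPN. Gp9, a subunit of the von Willebrand factor receptor, had 6.23, 2.48 and 7.08 FPKM in WT and 17.7, 15.9 and 11.9 FPKM in HSAPN. The platelet genes' summed level was 127 to 198 FPKM in WT and 247 to 342 FPKM in HSAPN. For red cells, 9 of 9 tested genes (12 in the files) were higher and 5 separate (background 10.3%), with a median of 1.74. Hba-a1, an alpha globin gene with a near-identical copy, had 137, 153 and 1198 FPKM in WT and 1941, 1157 and 1614 FPKM in HSAPN. WT replicate 3 lay within the HSAPN range for Hba-a1. Without it the red cell median was 2.40 and 6 of the 9 genes were called, against 178 of all 1489 genes.

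Interferon-induced genes had the same direction. Of 12 tested (14 in the files), 12 were higher and 7 had separate groups (background 10.3%), with a median of 1.04. Igtp, an immunity-related GTPase induced by interferon gamma, had 5.51, 7.47 and 13.7 FPKM in WT and 27.5, 40.8 and 19.5 FPKM in HSAPN. The groups were separate for Igtp (log2 difference 1.64, SE 0.69, limma adjusted p = 0.203). Gbp4, a guanylate-binding protein, had 1.38, 2.05 and 6.77 FPKM in WT and 13.9, 15.2 and 8.13 FPKM in HSAPN. Cxcl10, a chemokine for T cells, had 0.152, 0.621 and 1.28 FPKM in WT and 4.45, 15.1 and 1.36 FPKM in HSAPN, where HSAPN replicate 3 barely cleared the highest WT library. Tgtp1, Iigp1, Irf1 and Gbp5 were the others with separate groups, at log2 differences of 1.16, 1.54, 0.79 and 0.94, and Tgtp1 and the Gbp genes have close relatives that can share reads. Ifit2, which blocks translation of viral RNA, had the smallest p of the list with overlapping groups (1.83, 2.63 and 5.35 against 7.71, 11 and 4.60 FPKM). Without WT replicate 3, Ifit2 was the 1 gene of the 12 that was called.

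The promoters of this list were searched for GAAANNGAAA, a core of the interferon-stimulated response element, on both strands of the 250 bases before each start. It was found in 5 of the 8 genes that matched the RefSeq table (62.5%), against 936 of all 27025 promoters (3.46%). The motif was chosen with the list's values known, and a match is a description of the letters only. These 3 windows show it close to the start, farther off and on the opposite strand, in capitals, each 5′ to 3′ along its gene, from GRCm38.p6 chr11:58199482-58199555 (plus strand), chr5:92349053-92349139 (minus strand) and chr3:142496729-142496818 (plus strand):
Igtp: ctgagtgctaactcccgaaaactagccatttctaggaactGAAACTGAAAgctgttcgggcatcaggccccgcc
Cxcl10: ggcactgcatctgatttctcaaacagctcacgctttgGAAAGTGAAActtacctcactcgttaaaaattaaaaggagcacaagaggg
Gbp5: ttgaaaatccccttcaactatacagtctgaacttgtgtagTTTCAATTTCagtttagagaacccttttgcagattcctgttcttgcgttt

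Igtp, with the motif nearest to its start, had a WT range of 5.51 to 13.7 FPKM and an HSAPN range of 19.5 to 40.8 FPKM. Gbp5, with the motif on the opposite strand, had 0.654 to 1.74 FPKM in WT and 1.84 to 5.30 FPKM in HSAPN.

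Chemokines, cytokines and their regulators were higher in 10 of 12 tested, with a median of 1.08, and no adhesion gene of that list was tested. Groups were separate in 5 higher genes (background 10.3%) and 1 lower gene (19.7%), and without WT replicate 3 there were 11 higher genes. Besides Ccl8 and Ccl6, the alarmin gene Il33 had 4.36, 4.36 and 23.2 FPKM in WT and 13.2, 41.2 and 37.2 FPKM in HSAPN, with WT replicate 3 inside the HSAPN range. The 6 tested macrophage genes were higher, with a median of 0.68 that ran from 0.45 without WT replicate 1 to 1.07 without WT replicate 3. Of these 6, F13a1, the coagulation factor XIII subunit made by resident macrophages, and Adgre1, the F4/80 antigen, had separate groups (background 10.3%), and 1 of the 6 had an unadjusted p under 0.05. Retnla, a secreted product of alternatively activated macrophages, made up most of that list's summed level, at 1197, 195 and 593 FPKM in WT and 431, 1570 and 2665 FPKM in HSAPN. The groups overlapped in Retnla. The 9 tested genes of T and NK lymphocytes were higher (median 0.89), but 1 of them had separate groups, near the background of 10.3%, and none had an unadjusted p under 0.05. Of the 11 cell cycle genes 9 were higher (background 41.8%) and 6 of those separate (background 10.3%). None of these 9 had an unadjusted p under 0.05. Among the higher genes were Mki67 and Top2a, both of dividing cells, at log2 differences of 0.82 and 0.64, while Ccna1 and Rad51b were lower.

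Vasoactive genes were higher in 5 of 6 tested, with a median of 0.58. Ddah1, which degrades an endogenous inhibitor of nitric oxide synthase, had 1.88, 1.64 and 5.11 FPKM in WT and 5.12, 8.83 and 7.06 FPKM in HSAPN. Agtr1a, the main angiotensin II receptor of the vessel, had 2.56, 2.11 and 3.27 FPKM in WT and 5.43, 3.33 and 4.22 FPKM in HSAPN. Edn1, which encodes the constrictor endothelin-1, had 1.52, 3.63 and 10.3 FPKM in WT and 12.8, 15.3 and 11.5 FPKM in HSAPN. The 3 genes had separate groups (background 10.3%), by a margin of under 0.1 FPKM for Ddah1 and Agtr1a, whose highest WT library was WT replicate 3.

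Nuclear genes of the respiratory chain were lower by small amounts. The files held 53 subunits of the respiratory chain that are encoded in the nucleus, and all 53 were tested and had a negative log2 difference (background 58.2%), between −1.07 and −0.07 with a median of −0.35, and 10 had separate groups (background 19.7%, so near the share over all genes). Ndufb5, a subunit of complex I, had 11.3, 9.95 and 7.38 FPKM in WT and 6.40, 5.75 and 7.09 FPKM in HSAPN. Atp5j2, a subunit of ATP synthase, had 34.4 to 42.5 FPKM in WT and 24.4 to 33.2 FPKM in HSAPN. With median-ratio scaling 51 of the 53 were lower and the median was −0.23 against −0.02 for all genes. HSAPN replicate 3 was the highest HSAPN library over this list, with a summed level of 3676 FPKM inside the WT range of 3659 to 4434 FPKM, while the other HSAPN libraries had 2671 and 2752 FPKM. Of the 14 genes of the mitochondrial genome 12 were lower, all 12 with overlapping groups. The 2 higher ones, mt-Nd5 and mt-Nd4l of complex I, had separate groups, a share near the background of 10.3%. None of the 14 had an unadjusted p under 0.05. The median of the 14, −0.40, was −0.081 without WT replicate 1 and −0.72 without WT replicate 3. mt-Co3 had 262, 87.6 and 35.3 FPKM in WT and 43.3, 36.1 and 47.9 FPKM in HSAPN, so that WT replicate 1 carried its difference.

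Enzymes of fatty acid oxidation and ketone use were lower in 20 of 25 tested (29 in the files), with a median of −0.25 and 10 lower genes separate (background 19.7%). The median was −0.13 without WT replicate 3, with 18 of 25 lower, and −0.12 with median-ratio scaling. Bdh1, a ketone body dehydrogenase, had 5.02, 9.89 and 3.87 FPKM in WT and 1.34, 0.930 and 2.46 FPKM in HSAPN. Hadh, an enzyme of beta-oxidation, had 30.8 to 42.2 FPKM in WT and 23.1 to 26.9 FPKM in HSAPN. Oxct1, which activates ketone bodies for use, had 46.3 to 50.9 FPKM in WT and 29.5 to 39.7 FPKM in HSAPN. Genes of glucose use were lower in 14 of 19 tested (median −0.43; 13 of 19 without WT replicate 3), 5 of them with separate groups (background 19.7%), with Aldoa, Eno2 and Slc2a1 separate at −0.57, −0.87 and −0.67.

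Genes of fatty acid uptake and triglyceride handling split in direction, with 8 higher and 15 lower of 23. Angptl4, a secreted inhibitor of lipoprotein lipase, had 4.14, 3.59 and 16.0 FPKM in WT and 21.5, 18.5 and 16.8 FPKM in HSAPN. Gpihbp1, which carries that lipase across the endothelium, had 8.19, 9.83 and 34.2 FPKM in WT and 46.5, 40.5 and 39.3 FPKM in HSAPN. Plin2, the lipid droplet coat protein of most tissues, had 18.4 to 30.9 FPKM in WT and 35.0 to 49.4 FPKM in HSAPN. These 3 had separate groups (background 10.3%). Without WT replicate 3, 4 of the 23 genes were called, these 3 among them, against 178 of all 1489 genes. Cidea, a lipid droplet protein of brown fat, and Slc27a1, a fatty acid transporter, were lower at log2 differences of −1.30 and −0.79. The list's median of −0.19 was 0.091 without WT replicate 3, with 12 higher and 11 lower, −0.37 without WT replicate 1 and −0.065 with median-ratio scaling.

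Markers of other tissues varied between libraries of 1 group. White adipocyte genes were lower in 15 of 21, but their summed level was 194, 501 and 1402 FPKM in WT against 128, 173 and 260 FPKM in HSAPN, and the median of −1.16 became −0.41 without WT replicate 3. Cfd, an adipocyte-secreted protease also named adipsin, had 80.2, 240 and 681 FPKM in WT and 6.94, 22.9 and 61.3 FPKM in HSAPN. The 3 cardiac genes were lower but overlapped between groups, with a summed level of 48.3 to 310 FPKM in WT and 15.6 to 154 FPKM in HSAPN. Bpifa1, a secretory gene of the airway, had 238, 10735 and 2771 FPKM in WT and 27.9, 35.2 and 1149 FPKM in HSAPN. The fat, heart and airway levels were highest in WT replicates 2 and 3 and, within HSAPN, in replicate 3. Their part in the differences of the fat, mitochondrial and glucose genes was not tested. For skeletal muscle, B cells and cartilage, 3 of 14, 1 of 23 and 3 of 15 listed genes were in the files and none was tested, so these cells could not be judged from their markers. Of 48 antibody segments 22 were tested and 16 were higher in HSAPN (background 41.8%), but 1 of them had separate groups (background 10.3%). The median of 0.36 over the 22 became −0.030 without WT replicate 1. The summed level of the antibody segments was 3.98, 114 and 120 FPKM in WT and 26.7, 106 and 371 FPKM in HSAPN.

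**Figure D3:**
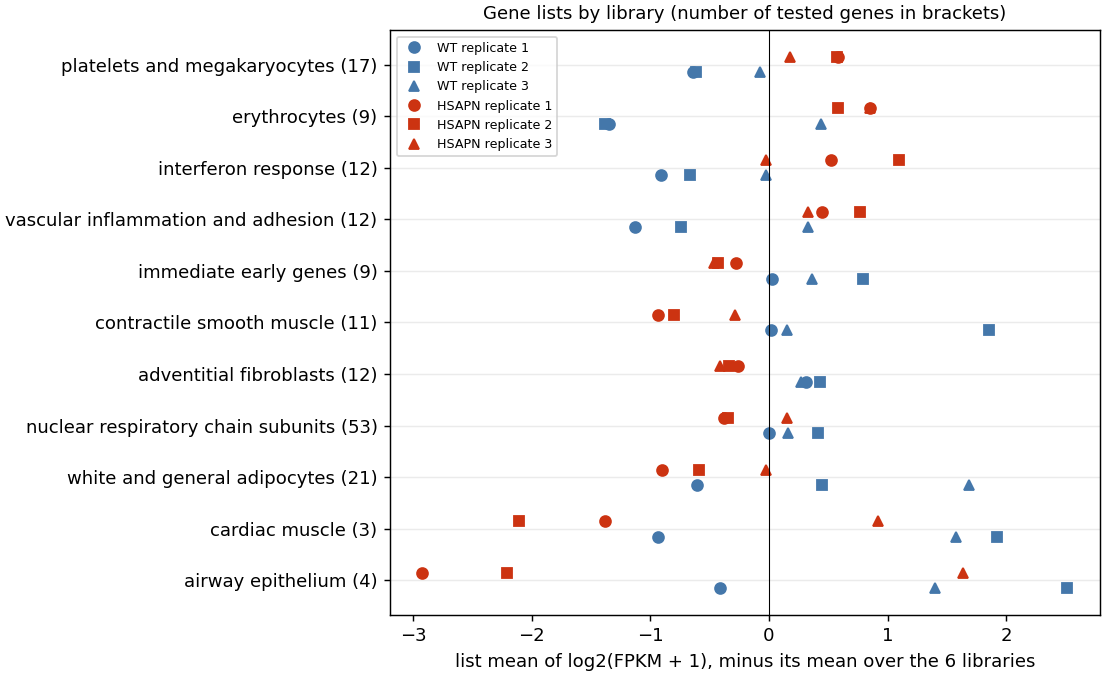
Mean log2(FPKM + 1) of each gene list by library, minus its mean over the 6 libraries, with blue for WT and red for HSAPN and 1 marker shape per replicate number. Fibroblast, platelet, immediate early and contractile genes separate the groups in all 6 libraries, whereas the adipocyte, cardiac and airway lists overlap and WT replicate 3 lies near HSAPN for the red cell and inflammation lists.

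**Figure D4:**
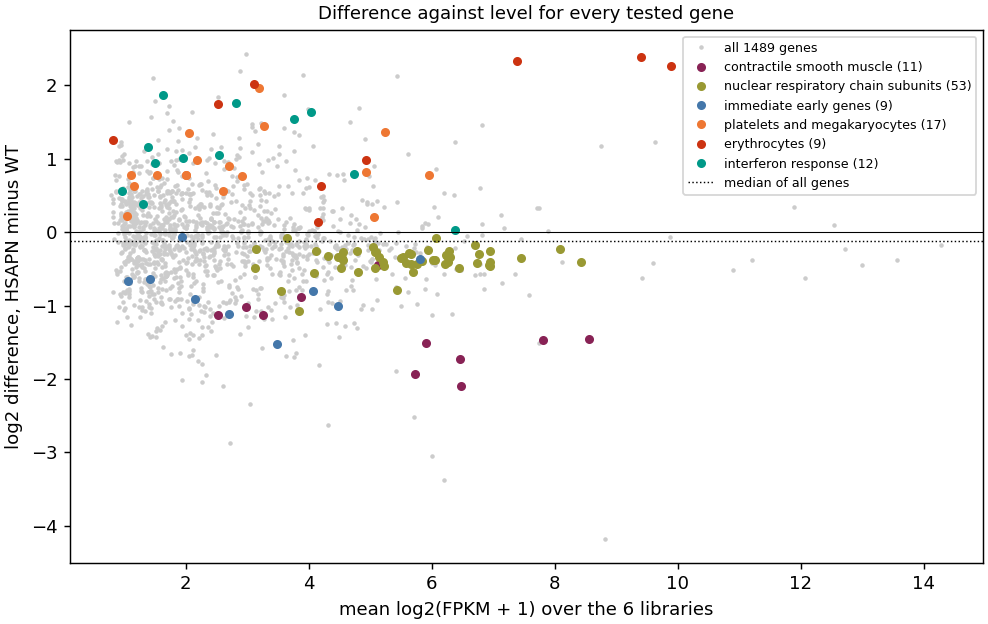
Log2 difference of HSAPN minus WT (y axis) against the mean log2(FPKM + 1) over the 6 libraries (x axis) for the 1489 tested genes, 6 lists in colour, with a dotted line at the median of all genes (−0.13). Respiratory chain genes form a narrow band just below 0, contractile genes lie below it and platelet, red cell and interferon genes above 0.

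HSAPN was also set beside the other high-fat groups, which share its diet. These comparisons use the same HSAPN libraries as the one with WT, so they are no separate support for it. Against HFD, the limma count was 0 of 1489 (0%), the limma-voom count was also 0, and 52 genes (3.49%) had a p under 0.05 before adjustment. HFD rests on 2 distinct libraries, since the files deposited as HFD replicates 1 and 2 hold identical values. Against HAPN, limma called 2 genes (0.134%), both lower in HSAPN, and 109 (7.32%) had an unadjusted p under 0.05. These were Hspa1b and Hspa1a, near-identical heat shock chaperone genes that can share reads. Hspa1b had 2.57, 2.03 and 2.28 FPKM in HSAPN, 91.0, 64.2 and 20.3 in HAPN, 3.36 and 2.49 in HFD, and 5.22, 8.06 and 8.29 in WT. It fell by 3.94 on the log2 scale from HAPN to HSAPN (limma adjusted p = 0.0131). The HAPN libraries were above all 8 others for Hspa1b. Leaving out any 1 of the HSAPN libraries, or HAPN replicate 2, ended both calls.

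Several genes that separated HSAPN from WT overlapped between HSAPN and the other high-fat groups. Ccna1 had 0.171 and 0.557 FPKM in HFD and 0.278 to 0.672 FPKM in HAPN, beside 0.280 to 0.463 FPKM in HSAPN. Egr1 had 5.73 and 7.88 FPKM in HFD and 4.12 to 7.01 FPKM in HAPN, beside 4.94 to 6.39 FPKM in HSAPN. Tnfsf9 had 3.42 and 4.50 FPKM in HFD and 4.11 to 6.17 FPKM in HAPN, beside 4.12 to 6.32 FPKM in HSAPN. The intervals of these differences still allow changes, with 95% limits for Egr1 against HAPN of −0.68 and 0.79 on the log2 scale.

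In 34 genes (2.28%) all 3 HSAPN libraries lay beyond all 8 other distinct libraries, 10 of them (0.672%) above and 24 (1.61%) below. The genes named from this set were chosen after their values were seen. Ccl8 reached at most 8.82 FPKM in HFD and 15.8 FPKM in HAPN, against at least 15.9 FPKM in HSAPN. Emp1, a membrane protein of epithelium and vessel, had 48.1 to 49.3 FPKM in HSAPN and at most 43.9 FPKM elsewhere. Kcnq5, a voltage-gated potassium channel of vascular smooth muscle and neurons, had 1.28 to 1.77 FPKM in HSAPN and at most 1.27 FPKM elsewhere. Amy1 had 3.32 and 4.63 FPKM in HFD and 4.33 to 6.55 FPKM in HAPN, against 1.75 to 2.79 FPKM in HSAPN. Nfil3, a repressor that opposes the clock factor Dbp, had 5.37 and 8.81 FPKM in HFD, 7.79 to 8.62 FPKM in HAPN and 3.72 to 5.84 FPKM in WT, against 2.76 to 3.44 FPKM in HSAPN. Tufm, a mitochondrial translation factor, and Grhpr were other genes below all 8. None of the genes named here passed the threshold against WT, HFD or HAPN as deposited, and Nfil3 passed against HAPN with median-ratio scaling. Hspa1a, called against HAPN, was also among the 24 below all 8.

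Dbp and Cyp1a1 had levels in HSAPN that overlapped WT and stood above the other high-fat libraries. Dbp, an output gene of the circadian clock, had 12.5, 7.92 and 14.5 FPKM in HSAPN and 18.1, 36.7 and 9.30 FPKM in WT, against 2.36 to 4.33 FPKM over HFD and HAPN. Cyp1a1, the main target of the aryl hydrocarbon receptor, had 12.6, 4.32 and 11.2 FPKM in HSAPN and 3.46, 3.73 and 16.1 FPKM in WT, against 0.293 to 2.75 FPKM over HFD and HAPN. Neither passed against any group, with limma adjusted p of 0.199 and 0.365 against HAPN. No source used here gives the time of day at which tissue was collected.

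**Figure D5:**
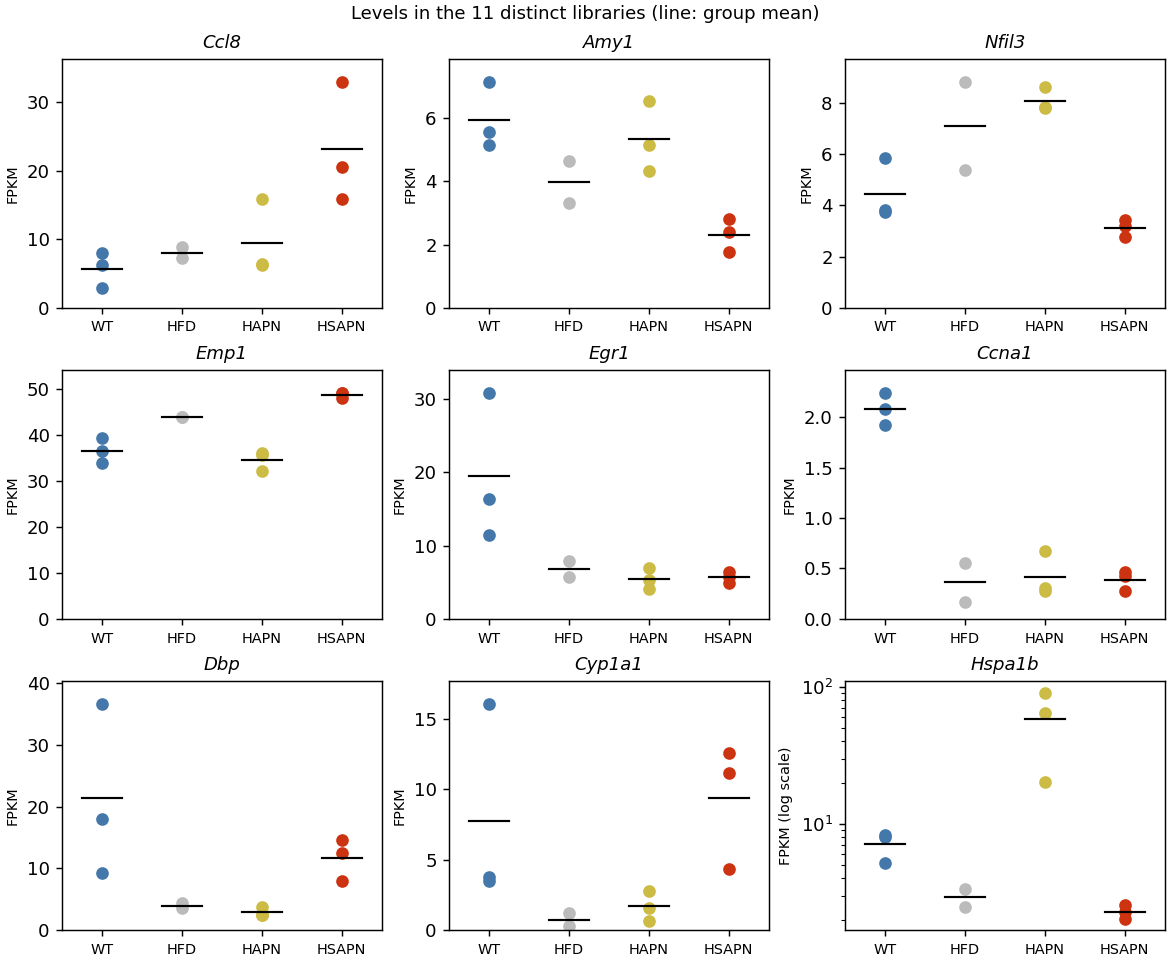
FPKM of 9 genes in the 11 distinct libraries by group, each point a library and each line a group mean, with a log y axis for Hspa1b only. Ccl8 and Emp1 are highest and Amy1 and Nfil3 lowest in HSAPN, Egr1 and Ccna1 are low in all high-fat groups, Dbp and Cyp1a1 overlap between HSAPN and WT, and Hspa1b is high in HAPN.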

How the data were processed

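Libraries of mouse aorta mRNA were made from TRIzol RNA with a directional NEB kit, per the labels. GRCm38, DESeq 1.8.3 and featureCounts 1.5.0-p3 appear in the submitters' processing notes without a stated role. The deposited files hold FPKM as the authors computed it, for 3534 symbols each, chosen by a rule that no source used here gives. From GENCODE M21 exonic lengths, values of 20 reads or fewer came out whole within 0.1 in 96.1 to 97.3% of cases, and a TPM scaling would do the same. Dlg2, listed 2 times, and 4 symbols turned into dates were left out, and 3410 symbols matched GENCODE M21.

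Genes were tested with limma 3.58.1 (limma-trend, R 4.3.3) on log2(FPKM + 1), so fold changes of low genes are understated, in 1 fit over 11 distinct libraries and 4 group means with 7 residual degrees of freedom and Benjamini-Hochberg adjustment over 1489 genes. On the simulated data, with noise independent between genes, the fit called 0.67% of unchanged genes. Named were the 12 genes in each direction with the smallest p, separate groups and a mean log2(FPKM + 1) of at least 1, pseudogenes, unnamed models and receptor segments aside, and up to 3 genes of each list. Further genes were named for their role or after their values were seen. The members, lists, motifs and tests were chosen with earlier results of these data known. Coordinates are GRCm38 from GENCODE M21, and promoter sequences are RefSeq's. Python 3.11.15 was used with NumPy 2.4.6, pandas 2.3.3 and matplotlib 3.10.9. Alternatives covered pseudocount, filter, scaling, library weights, limma-voom on recovered reads, a robust fit without trend, the 2 groups alone, a replicate block and each library left out.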

Additional observations from a re-analysis of the deposited data

How the results depend on the processing

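Between HSAPN and WT, 0 genes were called as deposited, 1 with a pseudocount of 5 (Ccna1, adjusted p = 0.0212), 441 with library weights, which gave WT replicate 3 the lowest weight of 0.385, and 0 to 178 when 1 library was left out, with 178 without WT replicate 3. Deviations of same-numbered libraries from their group means correlated at 0.343, −0.239 and 0.00156. With 3 libraries per group these values cannot settle whether the replicate numbers pair the samples. The fit of the 2 groups alone with a replicate block called 1 gene (Cfd, adjusted p = 0.0343). The remaining alternatives called 0. Groups were separate in 913 genes with no filter, where 3473 entered, in 194 of 697 with a filter at 5 FPKM, and in 487 to 858 with 1 library left out, where 695 belongs to HSAPN replicate 3. Against HFD, 0 to 1 genes were called with 1 library left out, namely Rbp7 without HFD replicate 3 and CT010467.1 without the HFD library that was deposited 2 times. Against HAPN, 0 genes were called with a pseudocount of 5, 1 without a filter, 1 with the filter at 5 FPKM, 1 with limma-voom, 3 with median-ratio scaling (Nfil3 beside Hspa1a and Hspa1b), 68 with library weights and 0 to 3 with 1 library left out. The cause of these changes was not tested. Of the 106 genes followed over the alternatives, 104 kept the direction of their log2 difference from WT. With 1 library left out, the log2 difference of Cdh13 ran from −0.56 to 0.073, the latter without WT replicate 3, and that of Irs2 from −0.058 without WT replicate 1 to 0.30.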
